A study of Mus musculus with 3 samples.

Results

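The 10 genes described here are 3 receptors for fibroblast growth factors (FGFs), Fgfr1, Fgfr2 and Fgfr3, and 7 genes that ERK signalling is known to induce: the Sprouty genes Spry1, Spry2 and Spry4, the MAP kinase phosphatases Dusp4 and Dusp6, and the transcription factors Etv4 and Etv5. They were matched by symbol, and all 10 were found among the 31053 genes of the matrices. RNA was counted in single cells dissociated with trypsin from the sensory epithelium of cultured cochleae of mice aged 4 to 6 weeks. All mice carried rtTA, which binds DNA only with doxycycline (Dox), and 2 transgenes that respond to it, tet-on-Myc and tet-on-NICD (the intracellular, active part of Notch). 1 Control library came from 4 pooled cultures given sterile water, and 2 Dox libraries, again of 4 pooled cultures each, had received 2 µg/ml Dox for 4 days. Control cultures carried the transgenes too and no group had Dox without them, and the labels do not name the promoter that drives rtTA. An effect of the drug and one of the transgenes cannot be told apart. The question was how the 10 genes were spread over the cell types of the explant and how their RNA differed after Dox.

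FGFs bind receptor tyrosine kinases on the cell surface, which pass the signal through adaptor proteins to RAS, RAF, MEK and ERK. Active ERK switches on its own brakes: Sprouty proteins act on the steps between receptor and RAF, and Dusp6 and Dusp4 remove phosphate from ERK. Etv4 and Etv5 are ETS-family transcription factors whose RNA rises with FGF signalling. In the cochlea, Fgfr3 is known from pillar and Deiters' cells, which are supporting cells of the sensory epithelium, and FGF signalling and Sprouty genes are known to set the number and kind of supporting cells during development. Other receptor tyrosine kinases use the same cascade, so RNA of the feedback genes does not name the receptor.

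Spry2 and Dusp6 were lower in Dox cells of several classes, and the sequences just upstream of their starts are shown for that reason. Spry2 lies on chromosome 14 at 105891947 to 105896819 (minus strand) and Dusp6 on chromosome 10 at 99263231 to 99267489 (plus strand) of GRCm38. The 250 bases before each start, from RefSeq's GRCm38.p6, are chr14:105896820-105897069 (minus strand) and chr10:99262981-99263230 (plus strand), written 5′ to 3′.

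Spry2: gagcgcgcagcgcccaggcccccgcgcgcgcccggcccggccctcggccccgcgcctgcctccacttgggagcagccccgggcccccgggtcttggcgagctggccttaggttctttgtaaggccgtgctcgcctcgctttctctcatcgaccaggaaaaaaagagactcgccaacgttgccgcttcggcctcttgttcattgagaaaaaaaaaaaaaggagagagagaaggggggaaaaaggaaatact

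Dusp6: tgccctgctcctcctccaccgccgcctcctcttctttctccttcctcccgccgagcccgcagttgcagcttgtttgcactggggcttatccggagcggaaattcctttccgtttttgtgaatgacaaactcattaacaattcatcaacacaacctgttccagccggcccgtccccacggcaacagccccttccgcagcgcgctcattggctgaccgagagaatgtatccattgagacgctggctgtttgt

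Matches to 5 motifs, on either strand, would be in capitals. The motifs were CCGGAA (an ETS site), TGANTCA (AP-1), TGACGTCA (the cAMP response element), CACGTG (the MYC E-box) and TGGGAA (RBPJ, the DNA-binding partner of NICD). Neither window held any of these 5, which says only that these letters are not in these 250 bases. The shorter core of ETS sites, GGAA, was not among the 5 and is present in both windows. Among 32851 upstream windows of the same length, 12% held CCGGAA, 6.75% TGANTCA, 1.55% TGACGTCA, 6.02% CACGTG and 21.6% TGGGAA. Windows were at hand for 6 of the 10 genes. TGGGAA was found in the window of Fgfr2, 104 bases before its start, and at 2 places in 1 of 2 windows of Etv5, and no other match was found. Of the bases, 62.4% were G or C in the Spry2 window and 56.4% in the Dusp6 window.

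The 3 libraries held 5436731 (Control), 20309102 and 33385927 (Dox replicates 1 and 2) unique molecular identifiers (UMIs, each marking 1 captured RNA molecule). 125 barcodes occurred in more than 1 library, 68 of them in all 3, and the smaller copies had totals 59.5 to 386 times below the largest. The 193 smaller copies were left out, 80 of them from Control (15.6% of its barcodes), and values with them kept are given where they change a call. This left 283, 595 and 925 cells with medians of 12829, 20441 and 29877 UMIs. Notch1, whose coding sequence includes that of NICD, was higher after Dox in epithelial-like, mesenchymal-like, supporting cell-like and glia-like cells, with log2 fold changes of 2.88 to 4.26. Myc rose by 1.82 (log2) in epithelial-like cells and was not called in mesenchymal-like or macrophage-like cells. Notch1 was not called in macrophage-like cells.

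Cells were clustered without the 10 genes and named from markers. The epithelial-like class held 53 Control, 211 Dox replicate 1 and 504 Dox replicate 2 cells in 6 clusters. Cluster 4 (23, 56 and 26 cells), led by Rorb, Ceacam16, Gjb2, Sox2 and Otog, carried supporting cell markers and is also described alone as supporting cell-like. Of its barcodes, 51.4% had little Malat1, a nuclear RNA (the cut was 0.108% of UMIs). The share was 10.1% in cluster 8 and 0.69% in cluster 10, so many supporting cell-like barcodes may not be whole cells. Cluster 8 (11, 39 and 49 cells) was led by Epyc and Aqp4, and cluster 10 (17, 21 and 107 cells) by Vmo1 and Crhbp and was named from markers of the sulcus, interdental cells or Reissner's membrane. Clusters 9, 13 and 15 came almost wholly from Dox cultures, with 2 Control cells in all against 95 and 322 Dox cells. The mesenchymal-like class (119, 121 and 146 cells) joined clusters 0 and 3, with fibroblast markers, and cluster 2, with pericyte markers. Cluster 0 held 89 cells, all from Control. Glia-like cells numbered 28, 39 and 51, and macrophage-like cells 23, 45 and 24. The clusters that make up the epithelial-like and mesenchymal-like classes therefore differed in share between the libraries.

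Levels are in CPM, the UMIs of a gene over all UMIs of that class and library, scaled to a sum of 1000000, and are given as a description. They are not compared between genes, since the reads come from 3′ ends.

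Fgfr1 (chromosome 8, 25513654 to 25575718, plus strand), the receptor known from mesenchyme, was, of the compared classes, highest in mesenchymal-like cells, with 249.8 CPM in Control and 185.7 and 120.9 in Dox. All 3 of these libraries lay above every other compared class except Control glia-like cells, where Fgfr1 stood at 168.2 CPM. In Dox glia-like cells it stood at 76.0 and 64.7 CPM. Epithelial-like cells held 38.6, 47.7 and 43.2 CPM, with 95% counting intervals that overlap. In supporting cell-like cells no Fgfr1 UMI was found in 23 Control cells, against 20 and 18 UMIs in Dox (9.23 and 22.4 CPM). A count of 0 among 297854 UMIs allows up to 10.1 CPM (3 UMIs), which is above the first Dox value, so a difference was not detectable at this depth. Of the 18 UMIs, 55.6% came from 1 cell. Macrophage-like cells had 0, 1 and 2 UMIs of Fgfr1, in 0 of 23, 1 of 45 and 1 of 24 cells at median depths of 7810, 10483 and 23460 UMIs. The level that free RNA could bring was not estimated.

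Fgfr2 is the receptor known from epithelia. In cluster 10 it reached 51.7 CPM in Control and 24.6 and 29.9 in Dox, and 13 of 17, 16 of 21 and 50 of 107 cells had a UMI. Cluster 15, led by Krt7 and Cdkn2a and holding no Control cell, had 27.8 and 15.2 CPM. The Control fibroblast-like cluster 0 had 20.5 CPM. No Fgfr2 UMI was found in supporting cell-like, glia-like or macrophage-like cells of any library. For the 56 supporting cell-like cells of Dox replicate 1 that allows up to 5.36% of cells with a UMI and 1.38 CPM.

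Fgfr3 (chromosome 5, 33721674 to 33737068, plus strand) was sparse everywhere. Of the compared classes it was highest in supporting cell-like cells, at 3.36 CPM in Control and 9.69 and 21.1 in Dox, from 1, 21 and 17 UMIs. The cells with a UMI numbered 1 of 23, 6 of 56 and 5 of 26, and 1 cell gave 57.1% of the UMIs in Dox replicate 1. Glia-like cells had 0, 7 and 2 UMIs (0, 8.58 and 3.59 CPM), in 0 of 28, 6 of 39 and 1 of 51 cells, and macrophage-like cells none. In each library the 95% counting intervals of glia-like and supporting cell-like cells overlapped, so these classes were not told apart.

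The Sprouty genes, which restrain receptor signalling, were also unevenly spread. Spry2 was present in every class, with 77.2, 51.7 and 87.0 CPM in supporting cell-like cells of Control and the 2 Dox libraries. Cluster 8 held 144.6 CPM in Control and 28.6 and 23.5 in Dox. Cluster 10 held 15.7, 17.9 and 19.5 CPM, with overlapping intervals. Spry4 was, of the compared classes, highest in mesenchymal-like cells, at 26.4, 27.0 and 18.7 CPM, while epithelial-like cells had at most 1.70 CPM and macrophage-like cells no UMI. Outside these classes, cluster 16, with endothelium markers and 2 and 5 Dox cells, had 24.1 and 94.4 CPM, from 1 and 9 UMIs. Spry1 stood at 37.9, 16.5 and 11.04 CPM in mesenchymal-like cells and 9.65, 6.40 and 10.9 in epithelial-like cells. Of the Control mesenchymal-like UMIs of Spry1, 26.8% came from 1 cell.

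Among the phosphatases, Dusp6 was broad. Macrophage-like cells held 137.1, 187.05 and 85.2 CPM and supporting cell-like cells 144.4, 36.0 and 27.3 CPM. Dusp4 (chromosome 8, 34807297 to 34819894, plus strand) was higher in glia-like cells, at 77.4, 30.6 and 34.1 CPM, than in any other compared class of the same library. The pericyte-like cluster 2 had no Dusp4 UMI in 7 Control cells, which allows up to 65.7 CPM, and 18.4 and 22.3 CPM in Dox, so a difference was not detectable at this depth. Of the ETV factors, Etv4 stood at 36.0, 19.3 and 19.5 CPM in cluster 3, led by Col12a1 and Tnc, and had no UMI in macrophage-like cells. Etv5 was found at 22.4, 42.5 and 23.5 CPM in macrophage-like cells and in cluster 3 at 34.2, 25.7 and 24.2 CPM.

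**Figure D1:**
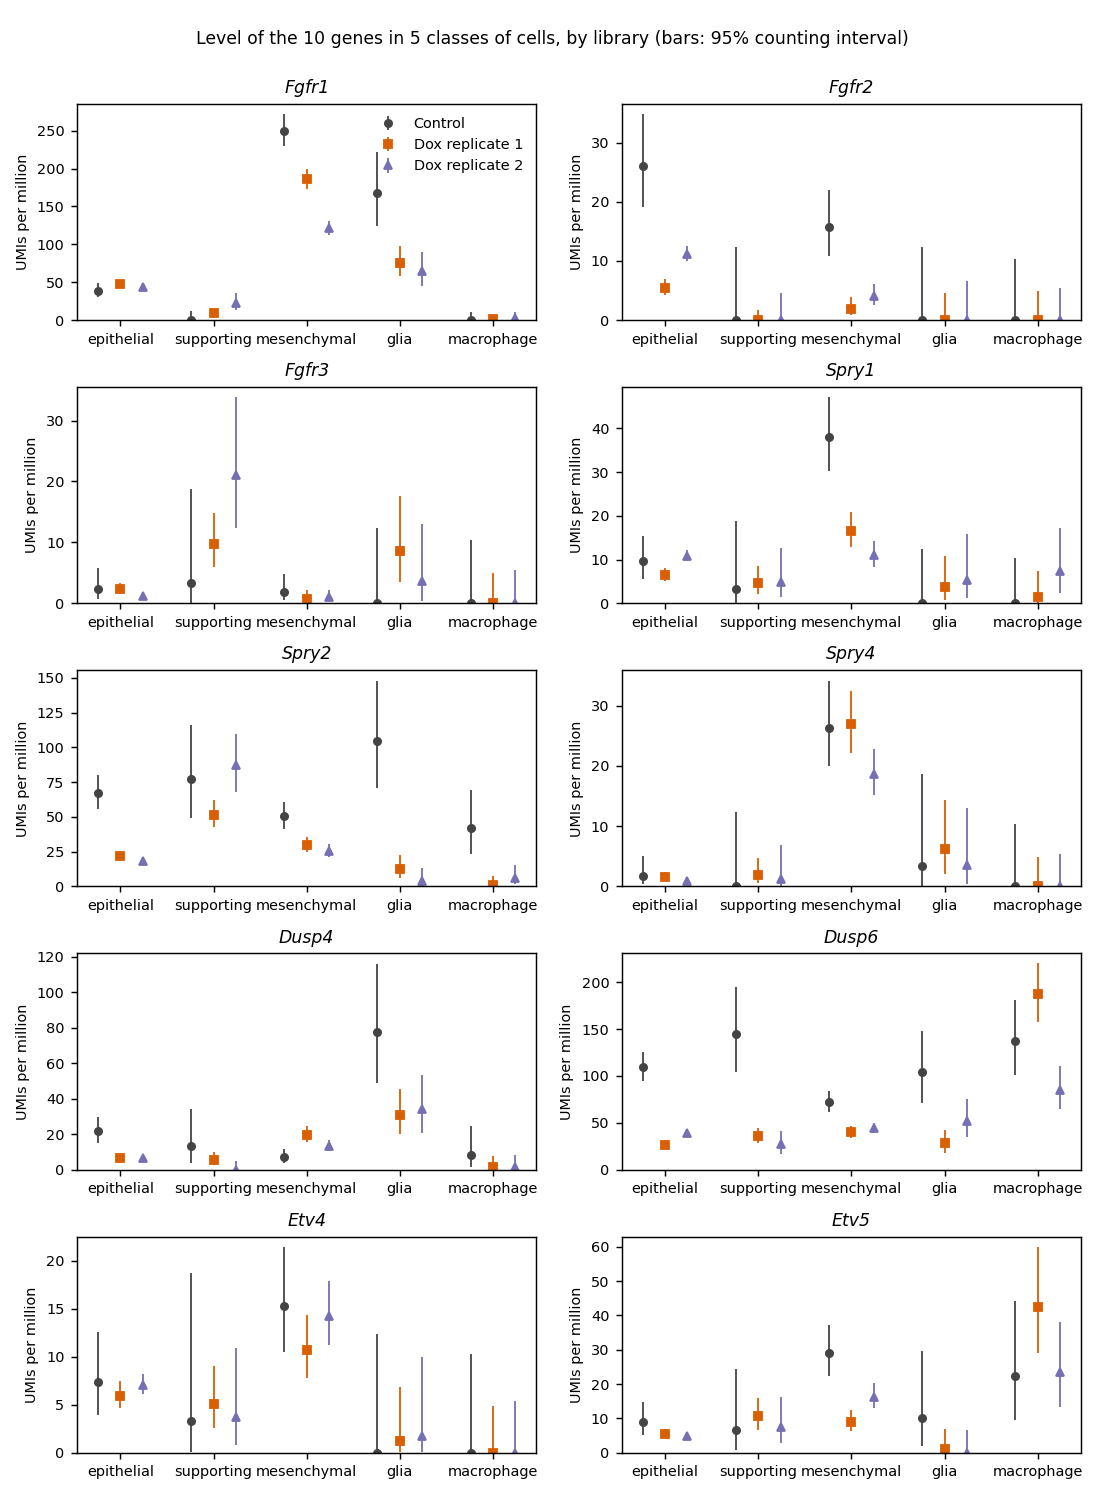
CPM of each gene (vertical axis) in 5 classes of cells (horizontal axis), with 1 point per library and bars for the 95% Poisson interval, which covers counting error only. Supporting cell-like cells are also part of the epithelial class. Fgfr1 and Spry4 stand highest in mesenchymal-like cells, Fgfr2 is at 0 in supporting, glia and macrophage classes, and the Control point of Spry2 in glia-like cells (104.3) lies far above the Dox points (12.3 and 3.59).

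Dox was compared with Control on UMI sums per library and class, with edgeR's quasi-likelihood test and Benjamini-Hochberg adjustment over all genes tested. The threshold for a call was an adjusted p of at most 0.05. The lone Control library is assumed to vary like the 2 Dox libraries, whose spread may be technical. A lone residual degree of freedom was left, so p-values also rest on spread shared across genes. The weight of that sharing, the median prior degrees of freedom, was 3.26 in all kept cells, 4.23 in epithelial-like and 4.16 in mesenchymal-like cells. It was 11.6 in supporting cell-like, 40.4 in glia-like and 44.3 in macrophage-like cells, so p-values of different classes lean on it unequally. None of the 10 genes rose past the threshold in any class, while Spry2 and Dusp6 each fell in several. Fold changes use TMM scaling. Scaling to total counts moved the median of all genes to between −0.47 (supporting cell-like) and −0.01 (macrophage-like) on the log2 scale. Every call of a member held under it. These calls were all falls and this scaling lowers fold changes, so it could hardly remove them. Calls of other genes were not checked under it.

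In all kept cells, 2 of 10 genes fell and none rose, against 7.26% of 15421 genes that fell and 8.17% that rose. Spry2 stood at 55.9 CPM in Control and 21.8 and 19.0 in Dox (log2 fold change −1.16, SE 0.17, edgeR adjusted p = 0.0289). Dusp6 stood at 90.6, 34.9 and 39.9 CPM (log2 fold change −0.98, SE 0.17, edgeR adjusted p = 0.0345). Both Dox libraries lay below Control for both genes, as they did for 44.6% of the 15421 genes. Etv5, at 18.7, 7.41 and 7.05 CPM, missed the threshold (edgeR adjusted p = 0.0585). The median of the 10 was −0.85, against −0.01 over all genes tested. Thinned to 1000 UMIs a cell, both calls were lost (edgeR adjusted p = 0.0839 and 0.236), and Fgfr1, which was not called on the whole counts, fell by 0.93 on the log2 scale (edgeR adjusted p = 0.0202). These sums mix cell types in different shares, so the classes follow.

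In epithelial-like cells Spry2, Dusp4 and Dusp6, all negative regulators of the pathway, fell and no member rose. That is 3 of 10, against 7.95% of 13655 genes that fell and 11.8% that rose. Spry2 stood at 67.0 CPM in Control and 21.7 and 18.5 in Dox, and its log2 fold change was −1.45 (SE 0.20, edgeR adjusted p = 0.0118). Dusp6 stood at 109.02 CPM against 26.5 and 39.1, with −1.43 (SE 0.27, edgeR adjusted p = 0.0250). Dusp4 stood at 21.6 CPM against 6.40 and 6.75, with −1.41 (SE 0.30, edgeR adjusted p = 0.0323). Both Dox libraries lay below Control for each of the 3, as they did for 41.5% of the 13655 genes. The median of the 10 was −0.39, against 0.07 over all genes tested. With no low-count filter none of the 3 was called (edgeR adjusted p = 0.0712, 0.117 and 0.0958), and with DESeq2 Dusp4 was not (adjusted p = 0.115). Dusp4 also lost its call with each library clustered alone (edgeR adjusted p = 0.0506). Thinned to 1000 UMIs a cell, Spry2 (−1.13, edgeR adjusted p = 0.658) and Dusp6 (−0.63, edgeR adjusted p = 0.775) were not called, from 4 Control UMIs each, and Dusp4 was too sparse to test.

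The receptors and ETV factors did not pass in epithelial-like cells. Fgfr2 gave 26.1, 5.44 and 11.2 CPM and a log2 fold change of −1.30 (SE 0.53, edgeR adjusted p = 0.154). Cluster 10 held all 46 of its Control UMIs. Fgfr1 gave 0.53 (SE 0.19, edgeR adjusted p = 0.116). Etv4 was at 7.38, 5.92 and 7.11 CPM and Etv5 at 9.09, 5.44 and 4.80 CPM. Spry1, Spry4 and Fgfr3 had log2 fold changes between −0.25 and 0.18 with SEs of 0.57 or more, and Spry4 and Fgfr3 had 3 and 4 Control UMIs.

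The epithelial-like values depended on which clusters were counted. With only clusters 4, 8 and 10, which hold at least 5 cells of each library, Dusp6 was still called (edgeR adjusted p = 0.0490). Spry2 then had a log2 fold change of −0.74 (edgeR adjusted p = 0.135) and Dusp4 one of −2.22 (edgeR adjusted p = 0.0513). A gap lay in cluster 8 for both Spry2 and Dusp6, in cluster 4 for Dusp6 too, and in cluster 10 for Dusp4. In cluster 8, Dusp6 stood at 199.9 CPM in Control and 24.7 and 13.2 in Dox, and all 11 Control cells had a UMI, against 17 of 39 and 9 of 49 Dox cells. In cluster 10, Dusp6 gave 55.1, 14.2 and 48.2 CPM, and the second Dox library overlapped Control. Dusp4 showed its gap in cluster 10, at 31.5, 2.24 and 5.78 CPM, with a UMI in 15 of 17 Control cells and in 2 of 21 and 15 of 107 Dox cells. Clusters 8 and 10 have fewer than 20 Control cells, and no test was made within them.

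**Figure D2:**
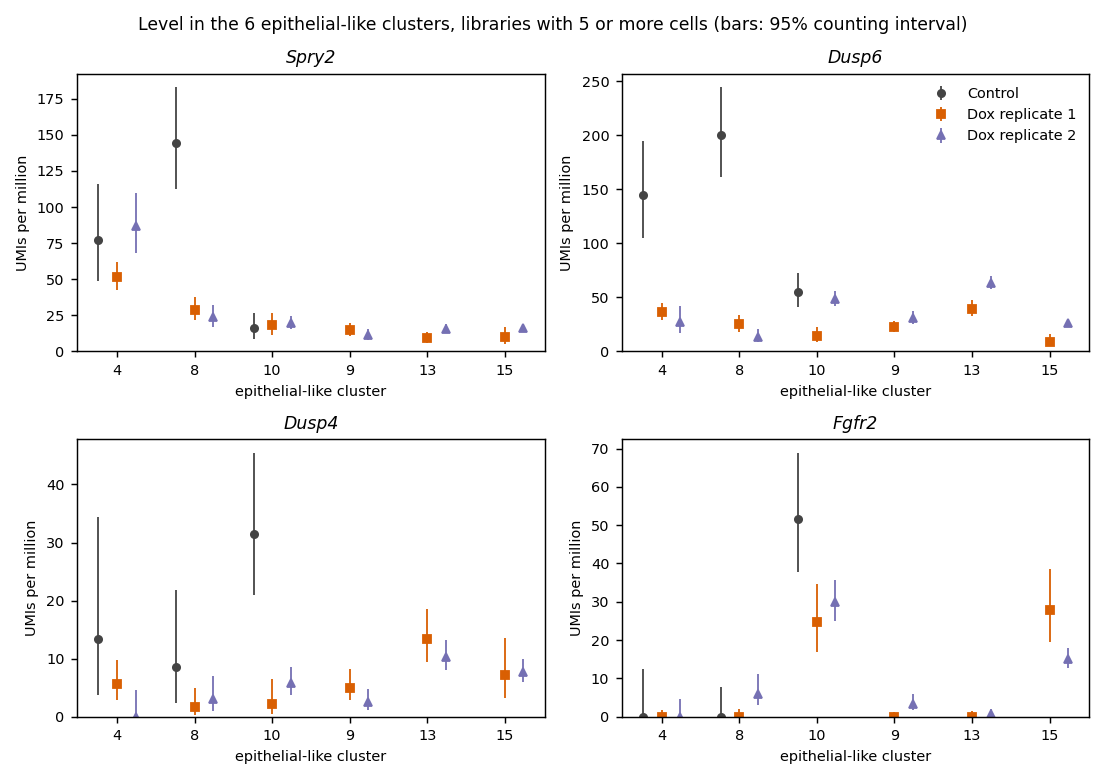
CPM of Spry2, Dusp6, Dusp4 and Fgfr2 (vertical axis) in the 6 epithelial-like clusters (horizontal axis), 1 point for each library with 5 or more cells and bars for the 95% Poisson interval. Spry2 and Dusp6 show a gap between Control and Dox in cluster 8, Dusp6 also in cluster 4, Dusp4 in cluster 10, and Fgfr2 is found mainly in clusters 10 and 15.

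In supporting cell-like cells 1 of 5 genes tested fell and none rose, against 3.36% of 8918 genes that fell and 6.37% that rose. Dusp6 stood at 144.4 CPM in Control and 36.0 and 27.3 in Dox (log2 fold change −1.65, SE 0.33, edgeR adjusted p = 0.00683). The shares of cells with a Dusp6 UMI were 39.1%, 39.3% and 38.5%, at median depths of 6701, 9544 and 22704 UMIs, so the gap was in CPM and not in these shares. Thinned to 1000 UMIs a cell, the shares were 9.52%, 2.00% and 3.85%, from 2, 1 and 1 cells. The 43 Control UMIs came from 9 cells, and 1 cell gave 32.6% of them. With no low-count filter (edgeR adjusted p = 0.0643) and with DESeq2 (adjusted p = 0.146) the call was lost. Leaving out the barcodes with little Malat1 left 11, 26 and 14 cells, too few for a test, so their part in these values was not tested. Spry2 had a log2 fold change of 0.28 (SE 0.39, edgeR adjusted p = 0.714), and −0.23 under total count scaling. The 95% counting interval of its Control value overlapped those of both Dox libraries. Fgfr1 (edgeR adjusted p = 0.107), Fgfr3 (0.246) and Dusp4 (0.590) did not pass, and the other genes were too sparse to test. In Control and the 2 Dox libraries, Spry1 had 1, 10 and 4 UMIs, Spry4 had 0, 4 and 1, Etv4 had 1, 11 and 3, and Etv5 had 2, 23 and 6.

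In glia-like cells Fgfr1, Spry2 and Dusp6 fell, 3 of 4 genes tested, against 4.8% of 7713 genes that fell and 4.78% that rose. Spry2 went from 104.3 CPM in Control to 12.3 and 3.59 in Dox, from 31, 10 and 2 UMIs. UMIs of Spry2 were found in 15 of 28 Control cells and in 5 of 39 and 2 of 51 Dox cells, and the log2 fold change was −3.32 (SE 0.51, edgeR adjusted p = 9.22e-06). Without Dox replicate 1 it was −4.54 and without Dox replicate 2 it was −2.74, with no test. Dusp6 stood at 104.3, 28.2 and 52.1 CPM (log2 fold change −1.19, SE 0.39, edgeR adjusted p = 0.0458). Fgfr1 stood at 168.2, 76.0 and 64.7 CPM, with −1.01 (SE 0.33, edgeR adjusted p = 0.0420). Both Dox libraries were below Control for each of these genes, as they were for 40% of the 7713 genes. The Spry2 call held in all 11 alternatives with an adjusted p, whose values ran from 1.04e-08 to 0.00509. The calls of Fgfr1 and Dusp6 were lost in 6 of 12 and 5 of 11, among them the one that kept the barcode copies (0.0524 and 0.0628). Clustering at resolution 0.5 and at resolution 2 gave the same glia-like cells as the main setting. These alternatives are in the counts but could not lose a call. With DESeq2 Fgfr1 was not called (adjusted p = 0.552), and Spry2 and Dusp6 got no adjusted p. Dusp4, at 77.4, 30.6 and 34.1 CPM, missed the threshold (edgeR adjusted p = 0.126). Too sparse to test were Spry1 (0, 3 and 3 UMIs in Control and the 2 Dox libraries), Spry4 (1, 5 and 2), Etv4 (0, 1 and 1) and Etv5 (3, 1 and 0), beside Fgfr2 and Fgfr3.

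In macrophage-like cells 1 of 3 genes tested fell, against 0.749% of 7740 genes that fell and 0.969% that rose. Spry2 gave 15 UMIs in Control and 1 and 4 in Dox (42.0, 1.33 and 5.87 CPM) and a log2 fold change of −3.45 (SE 0.91, edgeR adjusted p = 0.0335). It was found in 5 of 23 Control cells, and 1 cell gave 40% of the 15 UMIs. The call was lost in 5 of 8 alternatives, with the barcode copies kept among them (edgeR adjusted p = 0.0519). Resolution 0.5, counted among the 8, gave the same cells as the main setting and could not lose it. Without Dox replicate 2 the log2 fold change was −4.69 and without Dox replicate 1 it was −2.71. Dusp6 did not pass here, at 137.1, 187.05 and 85.2 CPM, where the Dox libraries lay on either side of Control (log2 fold change 0.05, SE 0.56, and −0.01 under total count scaling). Etv5 did not pass either (0.62, SE 0.71, edgeR adjusted p = 0.991), and Spry1 (0, 1 and 5 UMIs) and Dusp4 (3, 1 and 1) were too sparse to test. Macrophage markers summed to 19432, 21793 and 8593 CPM in this class, and neutrophil markers to 13603, 22105 and 14955 CPM, with 2, 1 and 1 of 10 at 0. Epithelium markers summed to 33.6, 91.5 and 772.2 CPM, with 15, 12 and 0 of 20 at 0. The part of these in the Spry2 result was not tested.

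In mesenchymal-like cells none of 9 genes tested was called by edgeR, against 8.23% of 11969 genes that fell and 10.1% that rose. DESeq2 called none either. Fgfr3, with 4, 3 and 5 UMIs, was too sparse to test. At an unadjusted p of at most 0.05, edgeR had 3 of the 9, Fgfr2, Spry1 and Dusp4, and 4360 of all 11969 genes. Fgfr2 stood at 15.7 CPM in Control and 1.94 and 4.00 in Dox (log2 fold change −2.01, SE 0.51, edgeR adjusted p = 0.0526). Of its 34 Control UMIs, 32 lay in cluster 0, and with only clusters 2 and 3 its log2 fold change was 0.17. Dusp4 had a positive sign, at 6.94, 19.7 and 13.1 CPM and a log2 fold change of 1.57 (SE 0.43, edgeR adjusted p = 0.0639). Dusp6, at 72.2, 40.1 and 44.2 CPM (−0.43), had the opposite sign (0.71) with clusters 2 and 3 only. With the strict cell filter 1 of the 9 rose and 5 fell, and with the members kept among the clustering genes 1 rose and 4 fell, in both cases with fewer cells in the class. Calls rose over all genes too. With the strict filter 2099 rose and 2191 fell of 10896, and with the members kept 1942 rose and 1910 fell of 11255. In the main setting 1208 rose and 985 fell of 11969.

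**Figure D3:**
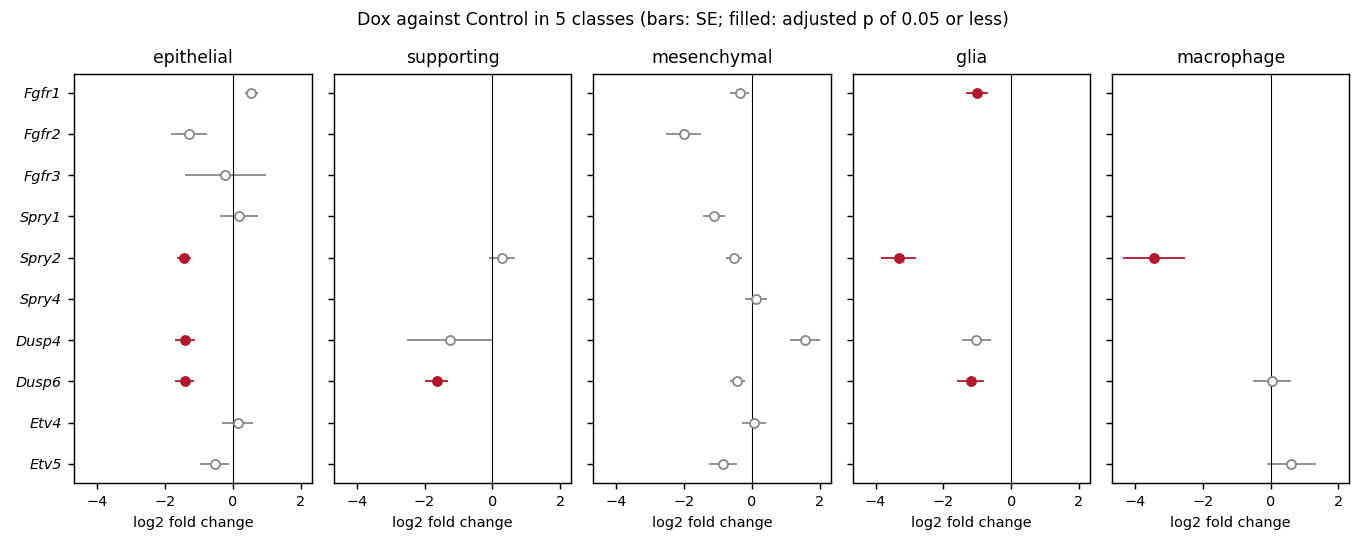
Log2 fold change of Dox against Control (horizontal axis, TMM-scaled) for each gene tested in each class, with bars for the SE and filled red points for called genes. Tested genes with 3 or fewer Control UMIs (Fgfr1 and Fgfr3 in supporting cell-like and Spry4 in epithelial-like cells) are left out. All filled points lie left of 0, and Dusp4 lies left of 0 in epithelial-like and right of 0 in mesenchymal-like cells.

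The differences between classes were tested directly. The Dox effect on Dusp4 in epithelial-like cells minus that in mesenchymal-like cells was −2.89 on the log2 scale (SE 0.52, edgeR adjusted p = 0.204). For Spry2 it was −0.86 (SE 0.25, edgeR adjusted p = 0.284) and for Dusp6 −0.96 (SE 0.29, edgeR adjusted p = 0.288). Against glia-like cells the difference was 1.78 for Spry2 (SE 0.51, edgeR adjusted p = 0.254). Against macrophage-like cells it was −1.57 for Dusp6 (SE 0.78, edgeR adjusted p = 0.508). None of the 10 genes passed in any of the 3 tests, in which 0% of 13548, 0.0899% of 11120 and 0% of 11325 genes were called by edgeR, and 1939, 1418 and 1226 genes had an unadjusted p of 0.05 or less. No Dox effect on a member was therefore shown to differ between classes.

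The rest of the pathway was read from lists. Of the FGF ligands, 8 of 22 were measured in epithelial-like cells, and 1 fell: Fgf2, a growth factor of many tissues, by 3.39 on the log2 scale (SE 0.68, edgeR adjusted p = 0.0281, 18 Control UMIs). Their median was −1.18, against 0.07 for all genes tested. In mesenchymal-like cells 2 of 5 fell, Fgf18 by 3.19 and Fgf2 by 1.67, and in glia-like cells 1 of 2, Fgf7 by 2.69. No ligand rose in these 3 classes.

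Of 15 measured co-receptors and other receptors in epithelial-like cells, 1 rose and 3 fell, against 11.8% and 7.95% of all genes. Sdc1, a heparan sulphate proteoglycan of the cell surface, rose by 2.62 (SE 0.31, edgeR adjusted p = 0.00869), while Sdc4, of the same family, fell by 1.29 and the glypican Gpc4 by 1.99. In glia-like cells 3 of 7 fell, the glypican Gpc1 by 2.02, the basement membrane proteoglycan Hspg2 by 1.37 and Sdc4 by 0.86. The adaptors that lead to RAS gave no call in epithelial-like (10 measured), mesenchymal-like (9), supporting cell-like (9), glia-like (8) or macrophage-like (8) cells. Of the RAS to ERK cascade, 1 of 11 rose in epithelial-like cells, Hras, by 1.05 (SE 0.19, edgeR adjusted p = 0.0225), and 1 of 11 fell in supporting cell-like cells, Mapk3, which encodes ERK1, by 1.27.

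Of the other negative regulators, Errfi1, an inhibitor of the EGF receptor, fell in epithelial-like (−1.61), mesenchymal-like (−1.66) and supporting cell-like cells (−1.76). Dusp5, another ERK phosphatase, fell by 0.78 in epithelial-like cells and rose by 1.47 in supporting cell-like cells. Of these regulators 0 of 16 rose and 2 fell in epithelial-like cells, against 11.8% and 7.95% of all genes. In supporting cell-like cells 1 of 11 rose and 1 fell, against 6.37% and 3.36%. Of 18 other ERK-induced genes in epithelial-like cells, 1 rose (Ccnd1, a G1 cyclin, by 0.84) and 2 fell (Phlda1, −1.39, and Dusp1, −0.72), with a median of 0.14. In mesenchymal-like cells 1 of 18 rose and 7 fell, with a median of −0.72 against 0.04 for all genes. In supporting cell-like cells Ccnd1 rose by 3.70 from 3 Control UMIs, while Phlda1 fell by 1.97. In macrophage-like cells Hbegf, a ligand of the EGF receptor, was called with no Control UMI. Of 16 measured other receptor tyrosine kinases in epithelial-like cells, 1 rose (Erbb3, by 0.93) and 2 fell, Ddr1 (−0.77) and the neurotrophin receptor Ntrk2 (−4.27). In mesenchymal-like cells 1 of 19 rose and 4 fell, among them Ntrk3 (−4.61), Met (−3.97) and the collagen receptor Ddr2 (−1.51). In supporting cell-like cells 0 of 9 rose and 1 fell, Ntrk2 (−3.25), in glia-like cells 0 of 10 rose and 2 fell, Met (−3.29) and Mertk (−2.58), and in macrophage-like cells 0 of 6 were called.

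Immediate early and dissociation genes, several of which ERK also induces, were counted as a further list. It shares Fos, Egr1 and Dusp1 with that of ERK-induced genes. Of its 18 genes, 2 rose and 4 fell in epithelial-like cells, with Atf3 up by 1.00 and Hspa1a down (−3.23). In mesenchymal-like cells 10 fell, in supporting cell-like cells 5, in glia-like cells 2, and in macrophage-like cells 0 of 16 were called. Of all genes tested in these classes, 8.23%, 3.36%, 4.8% and 0.749% fell, in the same order. Mesenchymal-like Control cells included the 89 of cluster 0, which held no Dox cell. In glia-like cells the 2 were Klf4 (−1.58) and Klf6 (−1.23). Their part in the falls of Spry2 and Dusp6 was not tested. Macrophage markers summed to 119.8, 42.5 and 60.6 CPM in epithelial-like cells, with 7, 1 and 2 of 12 at 0, and fibroblast markers to 323.1, 112.6 and 94.97 CPM, with 5, 1 and 2 of 14 at 0. In glia-like cells the glia markers themselves summed to 7022, 2120 and 3077 CPM, with 1 of 15 at 0 in each library, and macrophage markers to 6.73, 38.0 and 7.19 CPM, with 10, 9 and 10 of 12 at 0. The part of these in the results was not tested.

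Genes with the most similar pattern were sought over 23 sums of 11 clusters and 3 libraries, each with at least 20 cells, by Pearson's r of log2(CPM + 1) among 10688 genes. The sums share libraries and depth, so r is a description. Fgfr1 was nearest to Fkbp10 (0.95), Col4a2 (0.92) and Snhg18 (0.92), the first an endoplasmic reticulum chaperone of collagen and the second a basement membrane collagen. Fgfr2 was nearest to Tbx3 (0.87), Fam20a (0.87) and Dkk2 (0.86). Spry4 was nearest to the extracellular matrix genes Fstl1 (0.91) and Fbn1 (0.90) and to Igfbp7 (0.90). Spry1 was nearest to Ptk7 (0.89), Arhgef25 (0.86) and Cx3cl1 (0.85), and Etv4 to Tm4sf1 (0.88), Myh10 (0.85) and Fgd1 (0.84). Spry2 was nearest to Spa17 (0.82), Zfp318 (0.79) and Trp53i11 (0.77), Dusp6 to Zfyve26 (0.83), Rab7 (0.82) and Git2 (0.80), and Dusp4 to Mllt11 (0.81), Dot1l (0.77) and Rdh5 (0.77). Etv5 was nearest to Rbms1 (0.84), Ppm1m (0.83) and S1pr1 (0.83). Fgfr3 had fewer than 200 UMIs and was not compared.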

How the data were processed

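The chemistry was 10x Genomics 3′, version 3.1, per the labels' protocols. For every library the authors deposited 1 matrix of raw UMI counts, genes by barcodes. Cell Ranger 5.0, STAR, Seurat 3.2.2 and the builds mm10 and GRCm38 are named per the submitters' processing notes, while the matrix headers give software version 3.1.0. Their roles, and whether introns were counted, are not given in the sources used here. Gene positions are from GENCODE M21 (GRCm38).

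Of barcodes shared between libraries, the copy with the most UMIs was kept. Barcodes with under 200 genes, or with over 20% mitochondrial UMIs, were left out. No doublets were called or removed. Cells were scaled to 10000 UMIs and clustered (scanpy 1.11.5, 2000 variable genes without the members and pathway lists, 30 components, 15 neighbours, resolution 1). A cluster was named where its 25 leading genes held 3 or more markers of a type, and counted as epithelial also where 10 or more of 20 epithelium markers were found in 20% of its cells. Rebuilt names may differ from those of the study.

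UMI counts were summed per class and library, where each library had 20 cells or more, and tested with edgeR 4.0.16 (R 4.3.3; TMM, filterByExpr, quasi-likelihood F test, Benjamini-Hochberg over all genes tested). CPM in the text is not TMM-scaled. Intervals are 95% Poisson intervals, and floors are 3 UMIs or 3 cells. Both cover counting error only. The steps were tested on simulated counts. DESeq2 1.42.0 was an alternative, with other scaling, filters, clusterings, thinned cells (1000 UMIs) and the fits without 1 of the Dox libraries. Keeping the barcode copies, and leaving out clusters with under 5 cells in a library, were chosen after seeing the data. Members and lists were chosen with earlier results of these data known. The rule for named genes took all 10 members, and up to 3 genes per list by smallest p.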

Additional observations from a re-analysis of the deposited data

How the results depend on the processing

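No paired analysis was possible because the Control title gives no replicate number that would pair it with a Dox library. The 10 calls kept their sign in all 130 values under alternatives, and 29 of the 110 values with a test lost the call. These values include settings that left a class unchanged, resolutions 0.5 and 2 in glia-like and 0.5 in macrophage-like cells. Thinning to 1000 UMIs gave 1 call of 4 tested in all kept cells, of Fgfr1, which was not called before thinning, and 0 of 3 in epithelial-like cells, with fewer UMIs by construction. With no low-count filter there were 0 calls in epithelial-like, 0 in supporting cell-like, 1 in glia-like and 0 in macrophage-like cells. In epithelial-like and macrophage-like cells that setting called 0 genes at all. Clusters with 5 cells per library gave 1 call in epithelial-like cells. Supporting cell-like cells gave 0 with DESeq2 and 2 (1 rose) at resolution 2. In glia-like cells 1 was left with members kept in clustering, with little Malat1 left out and with barcode copies kept. In macrophage-like cells 0 were left with edgeR's legacy fit, at resolution 2, with members kept in clustering and with barcode copies kept. Against none in mesenchymal-like cells, DESeq2's size factors gave 1, total count scaling 2, resolution 2 1, little Malat1 left out 1, members kept in clustering 5 and the strict cell filter 6. Over all genes, DESeq2's size factors gave 2462 calls of 11969 and total count scaling 2623 of 11969. Resolution 2 gave 2472 of 11962 and little Malat1 left out 2284 of 11954. Members kept in clustering gave 3852 calls of 11255 and the strict cell filter 4290 of 10896. The main setting gave 2193 of 11969. The cause was not tested. DESeq2 gave no adjusted p for Spry2 and Dusp6 in glia-like cells or for Spry2 in macrophage-like cells, so its count of calls is left out in these classes.

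14 values of genes that were not called changed sign. Under total count scaling these were Spry1 (−0.13) and Etv4 (−0.17) in epithelial-like, Spry4 (−0.22) and Etv4 (−0.28) in mesenchymal-like, Spry2 (−0.23) in supporting cell-like and Dusp6 (−0.0065) in macrophage-like cells. With clusters of 5 cells per library they were Fgfr3 (0.98), Spry4 (0.048) and Etv4 (−1.13) in epithelial-like and Fgfr2 (0.17), Dusp6 (0.71) and Etv4 (−1.18) in mesenchymal-like cells. Etv4 in mesenchymal-like cells was also at −0.14 with members kept in clustering and at −0.63 with the strict cell filter.

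Total count scaling raised the share of genes that fell from 7.95% to 13.1% in epithelial-like, 8.23% to 15.3% in mesenchymal-like, 3.36% to 14.9% in supporting cell-like and 4.8% to 7.7% in glia-like cells. With either Dox library left out, 1 library stood against 1 and no calls were made. Settings with under 20 cells of a class in a library were not run: supporting cell-like cells at resolution 0.5, each library clustered alone for mesenchymal-like, supporting cell-like and macrophage-like cells, the strict filter for macrophage-like cells, and little Malat1 left out for supporting cell-like and macrophage-like cells. Thinned cells left no member to test in glia-like, supporting cell-like and macrophage-like cells.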
